A study of Mus musculus with 6 samples.

Results

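This account concerns the 10 mouse genes H2-Aa, H2-Ab1, H2-Eb1, H2-Eb2, H2-DMa, H2-DMb1, H2-DMb2, H2-Oa, H2-Ob and Ciita, which encode the chains of MHC class II molecules, the proteins that load them with peptide and their transcriptional master regulator. They were chosen by gene symbol from the 19505 named genes of a microarray study of brain microglia, and all 10 were measured, each by 1 probe set (a group of probes summarised to 1 value per array). Microglia came from female C57BL/6 mice with experimental autoimmune encephalomyelitis (EAE), a model of multiple sclerosis, at the peak of disease. Every mouse had been immunised with recombinant myelin oligodendrocyte glycoprotein (rMOG) in IFA and had received pertussis toxin. The 3 CKO samples carried a conditional knock-out in B cells, which the series title ties to B cells that express the cytokine GM-CSF, and the 3 control samples are labelled only as control. The deleted gene, the Cre driver, the age of the mice, the way microglia were isolated and whether a sample was 1 animal or a pool were not stated in the labels. The p-values below therefore reflect the spread among 3 and 3 samples, and that spread may be technical.

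MHC class II molecules are pairs of an alpha and a beta chain that display peptides from the endosomal pathway to CD4 T cells. H2-Aa and H2-Ab1 encode the pair known as I-A. H2-Eb1 encodes the beta chain of I-E, whose alpha chain gene is defective in C57BL/6 mice, so its transcript in this strain does not yield a surface I-E molecule. H2-DM, made from H2-DMa with a DMb chain, exchanges peptides inside the compartment, and H2-O, made from H2-Oa and H2-Ob, restrains H2-DM, mainly in B cells. Ciita does not bind DNA itself but is recruited to an X box and a Y box found in promoters of these genes, where the RFX factors (X box) and NF-Y (Y box, an inverted CCAAT sequence) sit. Resting microglia carry little class II, and interferon-gamma induces Ciita in them.

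To show which promoters of the set hold X and Y box letters and at what spacing, a stretch ending 26 bases before the annotated start is given for the 5 genes whose window in the RefSeq promoter table (build GRCm38.p6) begins at the outermost annotated start. Each runs 5′ to 3′ on the strand of the gene. Capitals mark matches on either strand to a relaxed X box core or to ATTGG, the Y box core. The longer capital run in H2-Eb1 spells the X box core, of which bases 3, 4, 7 and 8 could be any base in the search. The windows lie at chr17:34287849-34287968 (minus strand) for H2-Aa, chr17:34305722-34305841 for H2-Eb1, chr17:34153046-34153165 for H2-DMb1, chr17:34092234-34092353 for H2-Oa and chr17:34238760-34238879 for H2-Ob, the last 4 on the plus strand.
H2-Aa: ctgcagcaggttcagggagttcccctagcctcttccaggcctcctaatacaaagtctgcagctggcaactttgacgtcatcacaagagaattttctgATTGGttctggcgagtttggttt
H2-Eb1: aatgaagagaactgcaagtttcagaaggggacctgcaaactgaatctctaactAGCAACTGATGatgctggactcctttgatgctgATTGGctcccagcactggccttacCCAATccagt
H2-DMb1: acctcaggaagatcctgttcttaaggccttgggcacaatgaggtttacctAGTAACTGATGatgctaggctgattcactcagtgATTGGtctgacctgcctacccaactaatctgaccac
H2-Oa: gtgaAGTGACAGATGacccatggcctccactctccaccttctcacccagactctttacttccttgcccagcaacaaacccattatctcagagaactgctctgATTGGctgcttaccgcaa
H2-Ob: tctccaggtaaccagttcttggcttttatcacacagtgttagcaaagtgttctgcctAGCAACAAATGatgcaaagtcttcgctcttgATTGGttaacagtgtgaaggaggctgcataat
The table held entries for 8 of the 10 genes, in 9 windows of 250 bases before to 50 bases after a start; H2-Ab1 and Ciita had none. ATTGG occurred in windows of all 8 genes, against 37.4% of all 32851 mouse windows. The X box core, as this pattern spells it, occurred in 5 of the 8 genes, against 3.09% of all windows. The 5 were H2-DMb1, H2-Eb1, H2-Eb2, H2-Oa and H2-Ob. It was followed on the same strand by ATTGG, 31 to 34 bases from first base to first base, in H2-DMb1, H2-Eb1, H2-Eb2 and H2-Ob. Of the 5 printed stretches, that of H2-Aa held no match to the X box pattern, and the match in H2-Oa lay outside this spacing. The H2-Oa stretch also holds agcaacaaacc nearer to ATTGG, which departs from the pattern only at its end and is not marked. The pattern misses X boxes that differ at a fixed base, so a missing match does not show that a promoter lacks an X box. A spacing of 25 to 40 bases, a range chosen after these sequences had been seen, was found in 0.0548% of all windows, 18 in number. These matches describe the letters of the windows and were not tested for binding.

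The microglial label was checked on 11 measured marker genes. Csf1r, the receptor of the microglial growth factor CSF1, lay between 19.54 and 19.72 on the log2 scale of the arrays, and P2ry12, a purinergic receptor of resting microglia, between 18.76 and 19.72. The highest value on any array was 19.93, so both genes lie close to the top of the scale. The arrays also held signal of other cells. Astrocyte markers stood highest on CKO replicate 1 and control replicate 2, which exceeded the 6-array mean by 2.49 and 1.05 on average over 10 genes, and the other 4 arrays lay below it. The interquartile range of all values was 3.08 and 3.11 on CKO replicates 2 and 3, against 4.0 on CKO replicate 1 and 3.66 to 3.74 on the control arrays. The counts and fold changes of the class II genes are given with and without these arrays; marker lists, within-array differences, chromosomal neighbours and likeness are given with all 6 arrays only.

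All 10 class II genes had lower means in CKO than in control microglia, and 9 of the 10 had no CKO array as high as any control array. Of all 19505 genes, 8869 had lower CKO means. The differences were largest for the chain genes H2-Aa, H2-Ab1 and H2-Eb1, 13.1- to 25.6-fold, intermediate for H2-DM and Ciita, 3.83- to 6.6-fold, and smallest for H2-O and H2-Eb2, 1.86- to 2.98-fold. By limma's moderated test over all 22206 probe sets, 0 of the 10 passed an adjusted p of 0.05, which 0.00901% of all probe sets passed. At an unadjusted p under 0.05 the count was 10 of 10, all lower in CKO, against 6.35% of all probe sets lower and 3.55% higher in CKO; limma's unadjusted p for H2-Eb2, 0.04998, was only just under it. At an adjusted p of 0.1 it was 3 (H2-Aa, H2-Ab1 and H2-Eb1), against 0.198%. Groups without overlap and lower in CKO made up 9 of 10 here and 8.48% of all probe sets. The CKO mean was lower by 1 or more on the log2 scale for 9 of 10, against 4.4% of all probe sets. The median log2 fold change of the 10 genes was -1.99, and that of all genes was 0.05. The genes were put forward with results of these data known, so these counts describe the genes and do not test the set.

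**Figure D1:**
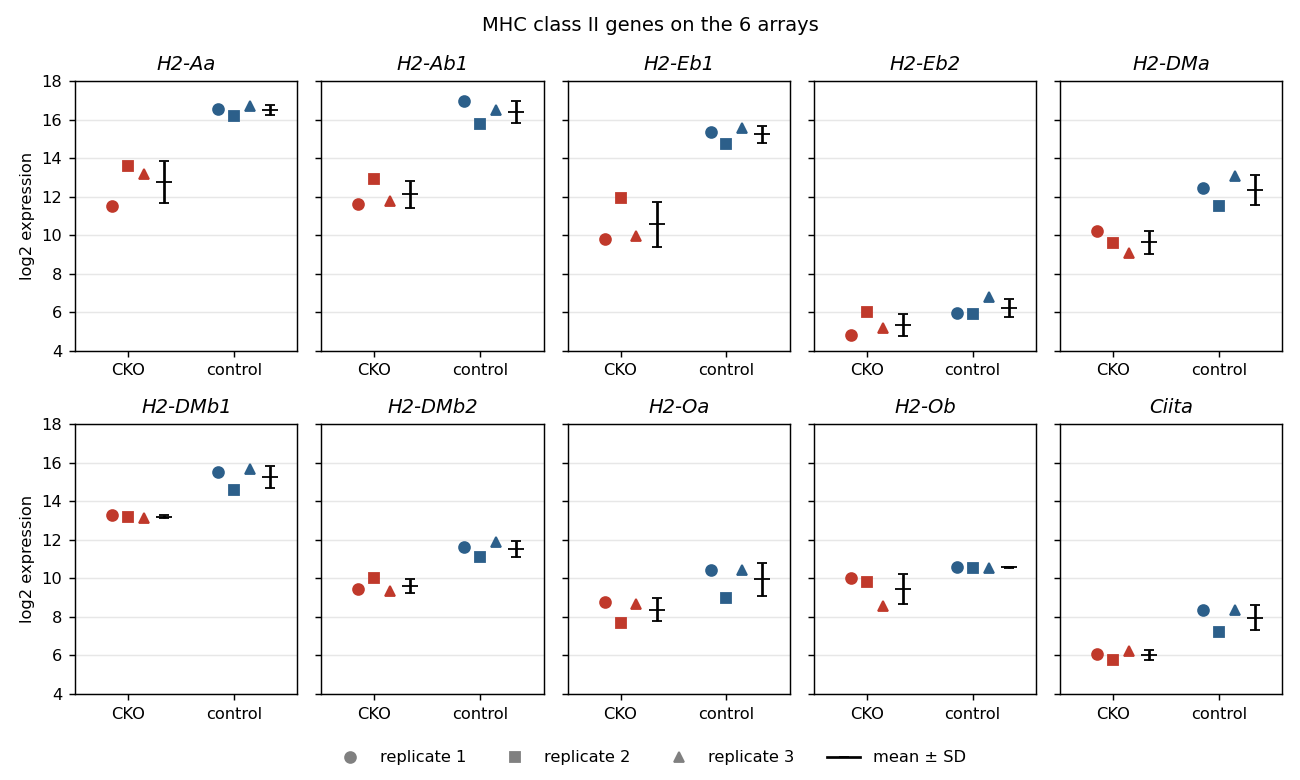
Log2 expression (vertical axis) of each class II gene on the 3 CKO and 3 control arrays, with the marker shape giving the replicate number and the black bar the mean ± SD. CKO arrays lie below all control arrays in every panel except H2-Eb2, where CKO replicate 2 (5.99) lies above 2 control arrays (5.97 and 5.92).

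H2-Ab1, the I-A beta chain, was at 11.64, 12.94 and 11.79 on CKO replicates 1, 2 and 3, against 16.94, 15.76 and 16.48 on control replicates 1, 2 and 3. Its highest CKO array lay 2.82 below its lowest control array, several times the SD within either group. The log2 fold change was -4.27 (SE 0.44, 95% interval -5.28 to -3.26), a 19.3-fold difference, and with an adjusted p of 0.058 this was the smallest p of the 10 genes and the 3rd smallest of all probe sets. H2-Aa, which encodes the alpha chain that pairs with it, stood at 11.53, 13.57 and 13.19 on the CKO arrays and 16.56, 16.19 and 16.69 on the control arrays. The CKO arrays of H2-Aa were spread over 2.04 and the control arrays over 0.50, with 2.62 between the groups. Its log2 fold change was -3.72 (SE 0.51, adjusted p = 0.0804).

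H2-Eb1, the I-E beta chain that lacks a partner in this strain, had the largest difference of the 10. It was at 9.80, 11.92 and 9.95 on the CKO arrays, against 15.37, 14.75 and 15.58 on the control arrays, a log2 fold change of -4.68 (SE 0.56, adjusted p = 0.0745). CKO replicate 2 stood apart upward in this gene, and without it the log2 fold change was -5.36 (adjusted p = 0.019). H2-Eb2, a related beta chain gene next to H2-Eb1, was at 4.84, 5.99 and 5.16 on the CKO arrays and 5.97, 5.92 and 6.78 on the control arrays. Every one of these values lay below the median of its array, and the groups overlapped. Its log2 fold change was -0.89 (SE 0.39, adjusted p = 0.504), with a 95% interval that reached from -1.79 to the edge of 0.

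The 3 genes of the peptide exchange factor H2-DM differed in parallel. H2-DMa, the alpha chain, was at 10.23, 9.57 and 9.07 on the CKO arrays, against 12.44, 11.52 and 13.08 on the control arrays. Its log2 fold change was -2.72 (SE 0.46, adjusted p = 0.104). H2-DMb1, a beta chain, was at 13.29, 13.18 and 13.14 on the CKO arrays and 15.50, 14.58 and 15.66 on the control arrays, a log2 fold change of -2.04 (SE 0.34, adjusted p = 0.104). H2-DMb1 varied least among CKO arrays, over 0.15, whereas its control arrays spread over 1.08. H2-DMb2, a close paralog of H2-DMb1, was at 9.44, 10 and 9.34 on the CKO arrays and 11.61, 11.10 and 11.89 on the control arrays, a log2 fold change of -1.94 (SE 0.32, adjusted p = 0.104). The DMb paralogs can share probes, and the probe sequences were not used here, so their values may not be independent.

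The H2-O genes differed least clearly among the measured loading genes. H2-Oa, the alpha chain of this inhibitor, was at 8.78, 7.66 and 8.69 on the CKO arrays and 10.44, 8.97 and 10.45 on the control arrays. Control replicate 2 lay only 0.19 above the highest CKO array, and the log2 fold change was -1.58 (SE 0.49, adjusted p = 0.327). H2-Ob, its beta chain, was at 10.01, 9.80 and 8.54 on the CKO arrays, against 10.60, 10.56 and 10.56 on the control arrays. The control arrays of H2-Ob were within 0.04 of each other, and its difference leaned on CKO replicate 3: the log2 fold change was -1.12 (SE 0.40, adjusted p = 0.407), and -0.67 without that array.

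Ciita, the transactivator, was at 6.09, 5.74 and 6.23 on the CKO arrays and at 8.34, 7.19 and 8.34 on the control arrays. The groups were 0.96 apart, with control replicate 2 nearest to the CKO arrays. The log2 fold change was -1.94 (SE 0.37, 95% interval -2.79 to -1.08, adjusted p = 0.121), a 3.83-fold difference. The 3 CKO values and that of control replicate 2 lay below the median of their arrays.

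The genes did not follow the same order among the arrays of a group. Control replicate 2 was the lowest control array in all 10 genes, although in H2-Ob only by a margin within 0.04. Among the CKO arrays, replicate 1 was lowest for the 4 chain genes, replicate 3 for the 3 H2-DM genes and H2-Ob, and replicate 2 for H2-Oa and Ciita. The level of the chains relative to H2-DM therefore varied between arrays. The mean of H2-Aa, H2-Ab1 and H2-Eb1 minus the mean of the 3 H2-DM genes was 0.00, 1.89 and 1.13 on CKO replicates 1, 2 and 3, against 3.11, 3.17 and 2.71 on the control arrays. The groups did not overlap in this measure, and it differed by -1.99 (CKO 1.01 ± 0.95, control 2.99 ± 0.25, SD, n = 3 each). H2-DM minus Ciita showed no such gap, at 4.90, 5.18 and 4.29 on the CKO arrays and 4.84, 5.21 and 5.20 on the control arrays. These within-array differences were formed after the values had been seen and were not tested.

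**Figure D2:**
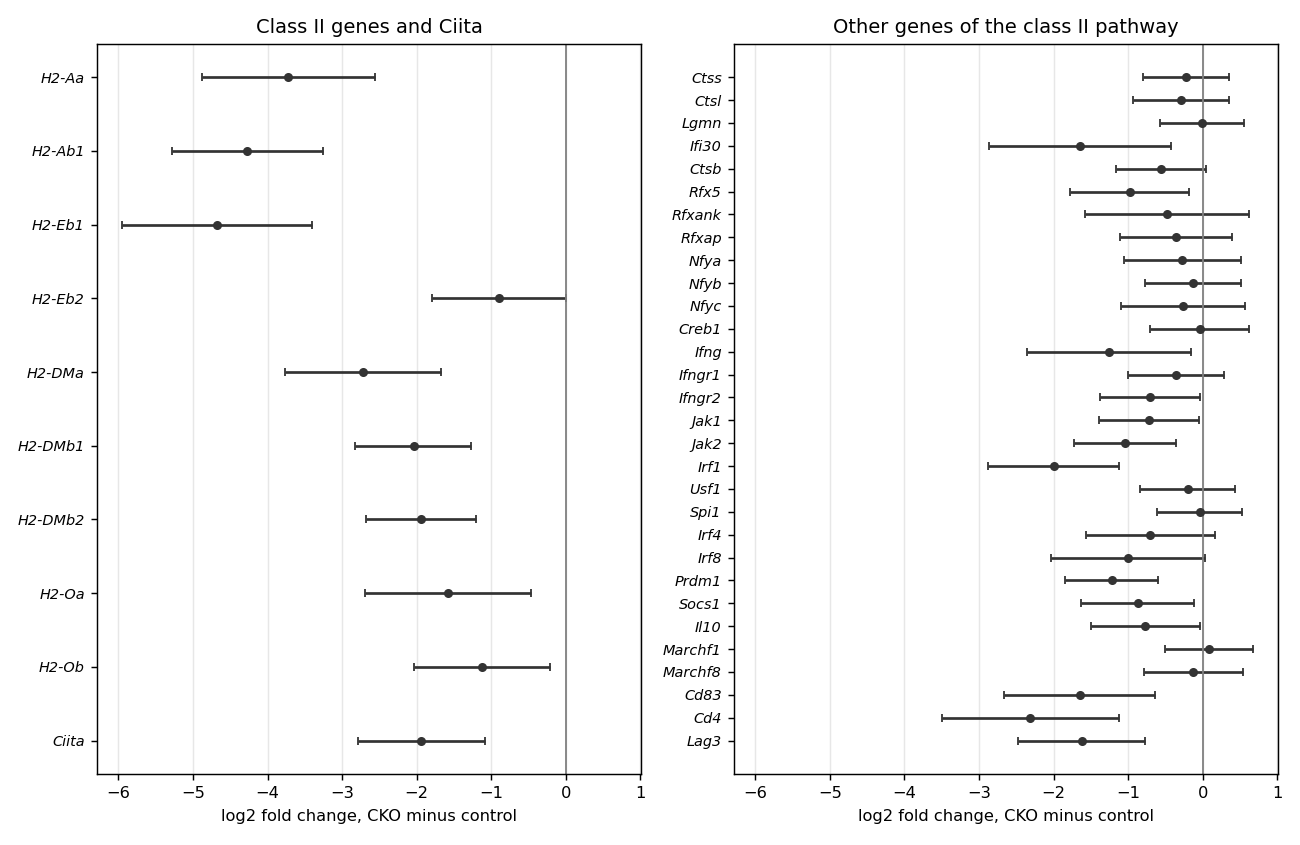
Log2 fold changes (points, horizontal axis, CKO minus control) with 95% intervals of the limma fit for the 10 genes of the class II set (left) and 30 other genes of the pathway (right). H2-Ab1, H2-Aa and H2-Eb1 lie furthest from 0, and most other genes of the pathway have intervals that reach 0.

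Other genes of the pathway differed less. Of 34 listed genes 30 were measured, 29 with a lower and 1 with a higher CKO mean, against 8869 of all 19505 genes lower. Their median log2 fold change was -0.63. Limma called 0 of them at an adjusted p of 0.05, and 13 had an unadjusted p under 0.05, all lower in CKO, against 6.35% of all probe sets; 4 listed genes were not analysed here. Among 7 genes of the interferon-gamma signal that induces Ciita, 5 reached that unadjusted p. Irf1, the transcription factor that acts on the interferon-gamma promoter of Ciita, was at 10.06, 10.25 and 10.10 on the CKO arrays and 12.31, 11.32 and 12.77 on the control arrays (log2 fold change -2.0, SE 0.39, adjusted p = 0.121). Replicate 3 was its highest control array, as in 7 of the 10 class II genes, and replicate 2 its lowest, as in all 10. Jak2, a kinase of the interferon-gamma receptor and the GM-CSF receptor, differed by -1.04 (SE 0.30, adjusted p = 0.279). Ifng itself, which encodes the cytokine and is made by T and NK cells, was at 6.68, 7.43 and 6.46 on the CKO arrays and 9.15, 7.43 and 7.76 on the control arrays. CKO replicate 2 equalled control replicate 2 in Ifng, and control replicate 1 stood highest; the difference was -1.26 (adjusted p = 0.45).

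Of the 7 genes for factors that sit on class II promoters with Ciita, only Rfx5, the DNA-contacting RFX subunit, reached an unadjusted p under 0.05. Rfx5 was at 9.16, 8.87 and 8.31 on the CKO arrays and 9.82, 9.28 and 10.18 on the control arrays, groups 0.12 apart (log2 fold change -0.98, SE 0.35, adjusted p = 0.407). The remaining 6, which cover the other RFX subunits, the NF-Y subunits and Creb1, had log2 fold changes of -0.48 to -0.04. Of 5 proteases and reductases that prepare antigen, 1 reached that p: Ifi30, the lysosomal thiol reductase, at -1.64 (SE 0.53, adjusted p = 0.355), named after its values were seen. Prdm1, a repressor of Ciita in plasma cells, differed by -1.22 (SE 0.27, adjusted p = 0.172) and so had a lower CKO mean as well. Cd83, which holds class II at the cell surface by opposing its ubiquitination, differed by -1.65 (SE 0.44, adjusted p = 0.245).

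Cd4 and Lag3, which encode a coreceptor and an inhibitory receptor that bind class II, differed in the same isolates. Cd4 was at 7.40, 8.58 and 8.57 on the CKO arrays and 11.21, 9.44 and 10.84 on the control arrays (log2 fold change -2.31, SE 0.52, adjusted p = 0.173). Lag3, a class II receptor on activated T cells, was at 11.80, 11.01 and 10.84 on the CKO arrays and 13.17, 12.28 and 13.05 on the control arrays (log2 fold change -1.62, SE 0.37, adjusted p = 0.179). Neither gene's groups overlapped, and control replicate 2 was the lowest control array in each. Among the CKO arrays, replicate 1 was the lowest for Cd4 and the highest for Lag3. Which cells gave the Lag3 signal was not tested.

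**Figure D3:**
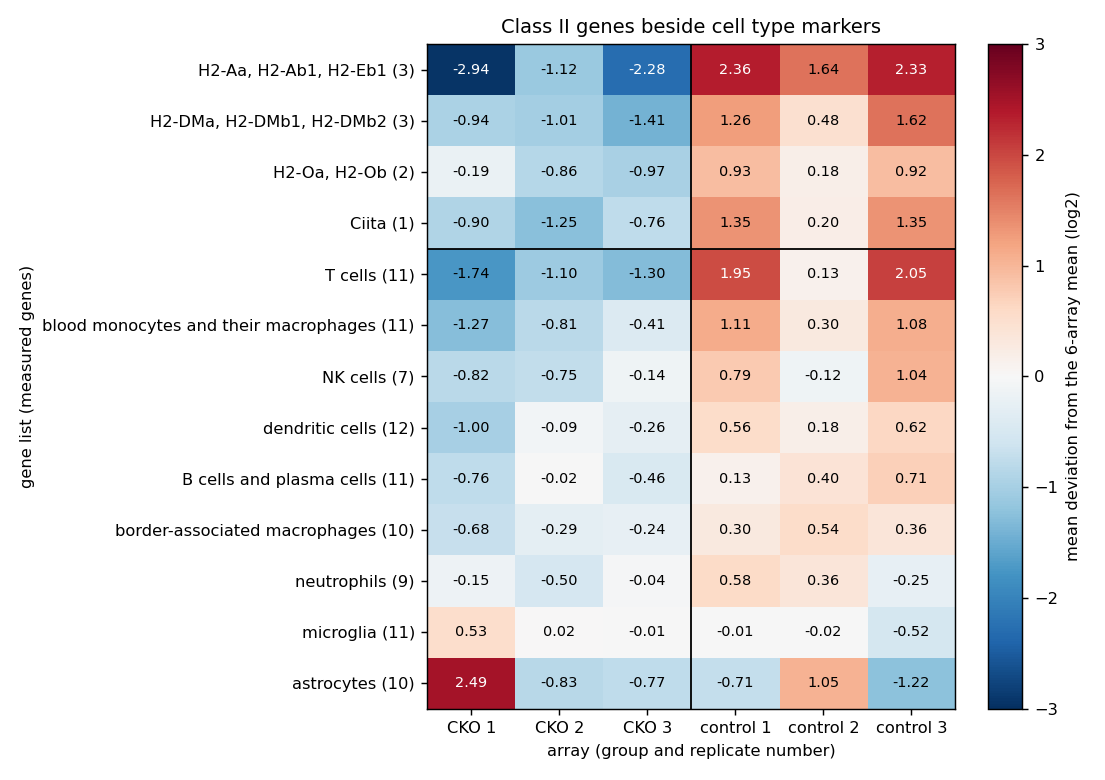
Mean deviation (colour and printed value, log2) of each gene list from its own 6-array mean, on the 3 CKO arrays (left) and the 3 control arrays (right). T cell and monocyte markers are low on all CKO arrays like the class II genes above the line, while astrocyte markers are high on CKO 1 (2.49) and control 2 (1.05).

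Markers of other leukocytes that carry class II, or that occur beside such cells, were lower in CKO alongside the class II genes. In RNA from whole isolates, fewer cells of a type and less RNA per cell cannot be told apart. As background for all marker counts, 8869 of all 19505 genes had lower and 10636 had higher CKO means. Without overlap between the groups, 1709 of all genes were lower and 1125 higher in CKO. At limma's unadjusted p under 0.05, 6.35% of all probe sets were lower and 3.55% higher in CKO. All 11 measured markers of blood monocytes and their macrophages had lower CKO means, 7 at an unadjusted p under 0.05, with a median log2 fold change of -1.99. Their summed level (log2 of the sum of linear values) was 16.43 to 17.44 on the CKO arrays and 18.61 to 18.95 on the control arrays. Lyz2, the lysozyme of monocytes and macrophages, stood at 15.36, 16.25 and 16.59 on the CKO arrays against 17.92, 18.13 and 18.19 on the control arrays. It had the highest value of these markers on every array and weighed most in their summed level. Groups without overlap were found for 7 of the 11 markers. Ly6c2, another monocyte marker, overlapped, at 13.87, 13.07 and 14.88 on the CKO arrays and 16.06, 14.02 and 16.25 on the control arrays. For all 11 T cell markers CKO means were lower, with a median of -3.10 and a summed level of 9.84 to 11.23 on the CKO arrays and 12.40 to 14.58 on the control arrays, and 10 reached an unadjusted p under 0.05. Icos, a costimulatory receptor of activated T cells, was at 7.70, 10.33 and 9.06 on the CKO arrays and 12.79, 11.24 and 13.25 on the control arrays. Cd3e, part of the CD3 signalling complex, was at 6.48, 8.21 and 7.40 on the CKO arrays and 12.55, 9.59 and 12.45 on the control arrays. The part of monocytes and T cells in the class II differences was not tested.

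Dendritic cell markers had a median log2 fold change of -0.68, 11 of 12 with lower CKO means and 4 at an unadjusted p under 0.05. Their summed level was 10.27 to 11.83 on the CKO arrays and 11.80 to 12.78 on the control arrays, so the groups met. Ccr7, a chemokine receptor of migrating dendritic cells, was at 7.76, 10.59 and 9.84 on the CKO arrays, which spread across the control values of 9.74, 9.35 and 10.24. Cd209a, a lectin of monocyte-derived dendritic cells, was at 8.14, 9.61 and 9.01 on the CKO arrays and 10.78, 10.12 and 9.23 on the control arrays, with overlap. Ccl22, a chemokine of dendritic cells and activated macrophages, was at 6.32, 8.10 and 6.55 on the CKO arrays against 11.41, 8.90 and 11.65 on the control arrays, without overlap.

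Of the B cell and plasma cell markers, 8 of 11 had lower CKO means, 2 of them at an unadjusted p under 0.05, with a median of -0.33 and a summed level of 11.99 to 12.36 on the CKO arrays and 12.31 to 13.72 on the control arrays. Cd79b, a chain of the B cell receptor, was at 8.04, 7.78 and 6.62 on the CKO arrays and 8.27, 7.97 and 8.83 on the control arrays, with CKO replicate 1 above control replicate 2. Jchain, the joining chain of secreted antibody and a plasma cell gene, was at 5.14, 8.80 and 5.98 on the CKO arrays and 10.76, 11.02 and 13.09 on the control arrays, a difference of -4.98 (SE 0.95, adjusted p = 0.121). Cd22, an inhibitory lectin of B cells, differed by -2.22 (SE 0.35, adjusted p = 0.0983) and is named after its values were seen. Bank1, a B cell scaffold protein, ran the other way, with a log2 fold change of 0.51 (adjusted p = 0.599). On every array but control replicate 3 it had the highest value of these markers and weighed most in their summed level. The values of 5 dendritic and 5 B cell markers lay below the array median on all 6 arrays, and no marker is at 0 on this scale.

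NK cell markers had lower CKO means in 7 of 7, 4 of them at limma's unadjusted p under 0.05, with a median of -0.88. Their summed level was 9.83 to 10.63 on the CKO arrays and 10.84 to 12.47 on the control arrays. Border-associated macrophage markers had lower CKO means in 8 of 10, with a median of -0.63. At that unadjusted p, 5 of the 10 were lower and 1 was higher in CKO. Groups without overlap were also found for 5 lower and 1 higher, against 1709 lower and 1125 higher of all 19505 genes. Their summed level was 13.16 to 14.47 on the CKO arrays against 14.30 to 14.62 on the control arrays. Mrc1, the mannose receptor of these macrophages, was at 12.73, 14.02 and 14.28 on the CKO arrays and 13.90, 14.19 and 13.24 on the control arrays, so its groups overlapped. Lyve1, a hyaluronan receptor that marks a subset of these macrophages, ran the other way without overlap, at 8.30, 8.55 and 8.44 on the CKO arrays and 6.90, 7.43 and 6.98 on the control arrays (log2 fold change 1.33, adjusted p = 0.145), and is named after its values were seen. Ms4a7, a membrane protein of macrophages, was at 8.60, 9.77 and 9.11 on the CKO arrays and 11.25, 11.37 and 12.59 on the control arrays, without overlap. Neutrophil markers were lower in 7 of 9, 1 of them at that unadjusted p, with a median of -0.36. Their summed level was 20.09 to 20.26 on the CKO arrays against 19.91 to 20.40 on the control arrays. Microglial markers had higher CKO means in 9 of 11, 2 of them at that unadjusted p and 3 without overlap, with a median of 0.35. Their summed level was 21.81 to 22.01 on the CKO arrays against 21.16 to 21.66 on the control arrays. The part of these cell types in the class II differences was not tested.

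The class II chains differed more between the groups than the monocyte markers did. The mean of H2-Aa, H2-Ab1 and H2-Eb1 minus the mean of the monocyte markers was 0.24, 1.6 and 0.04 on CKO replicates 1, 2 and 3, against 3.16, 3.25 and 3.16 on the control arrays. For the H2-DM genes the same measure overlapped, at 0.24, -0.29 and -1.08 on the CKO arrays and 0.06, 0.08 and 0.45 on the control arrays. On a single array such a measure compares different probe sets and shows no change. Only its difference between the groups describes unequal change of the genes compared. Neither measure was tested.

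**Figure D4:**
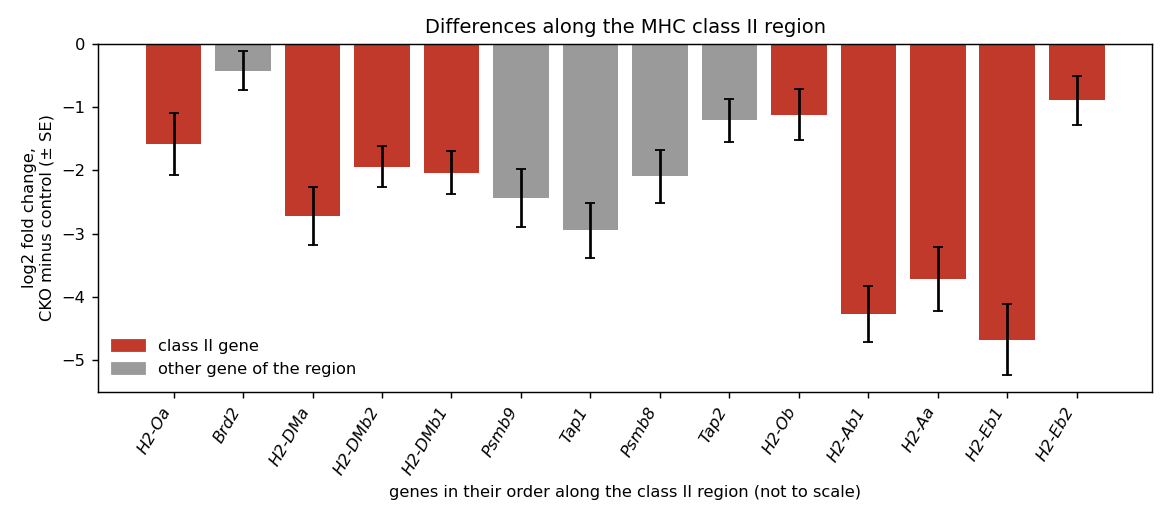
Log2 fold change (bars, CKO minus control, ± SE) of the measured genes between the outermost class II genes on mouse chromosome 17, in their order along the chromosome. The H2-Ab1, H2-Aa and H2-Eb1 bars are the longest, and Brd2 (-0.42) is the shortest.

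The 9 class II genes lie together on chromosome 17, and Ciita lies on chromosome 16. Between the outermost class II genes the mouse gene table lists 6 further genes, 5 of them measured, all with lower CKO means. Tap1, a subunit of the transporter that feeds peptides to MHC class I, differed by -2.95 (SE 0.44, adjusted p = 0.0891), and Psmb9 and Psmb8, subunits of the immunoproteasome, by -2.44 and -2.09 (adjusted p = 0.121 and 0.135). Tap2, the other transporter subunit, differed by -1.21 (adjusted p = 0.274). Brd2, which encodes a bromodomain reader of acetylated histones and lies between H2-Oa and H2-DMa, was at 12.95, 12.17 and 12.20 on the CKO arrays and 13.02, 12.87 and 12.69 on the control arrays. The groups overlapped in Brd2, and its log2 fold change was -0.42 (SE 0.31, adjusted p = 0.648).

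Genes whose profile over the 6 arrays was most like the class II genes were sought among 1019 named genes with an SD of at least 1 over the arrays, by Pearson's correlation with the mean of the 10 centred class II genes. The highest values belonged to H2-M3 and Cd72 (0.996 each), H2-D1 and Ifit3b (0.995 each), and S100a10 and Slc1a5 (0.994 each). H2-M3 and H2-D1 encode MHC class I heavy chains, Cd72 is a lectin-like receptor known from B cells, Ifit3b is an interferon-induced gene, S100a10 binds annexin A2 and Slc1a5 carries glutamine. Cd72 was at 9.84, 10.25 and 9.47 on the CKO arrays and 12.44, 11.96 and 12.79 on the control arrays. The lowest correlations were those of Gap43, a growth cone protein of neurons (-0.842), and Golm2 (-0.839). The 6 arrays share 2 groups, so any gene with a similar group difference scores high, and these values are a description.

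**Figure D5:**
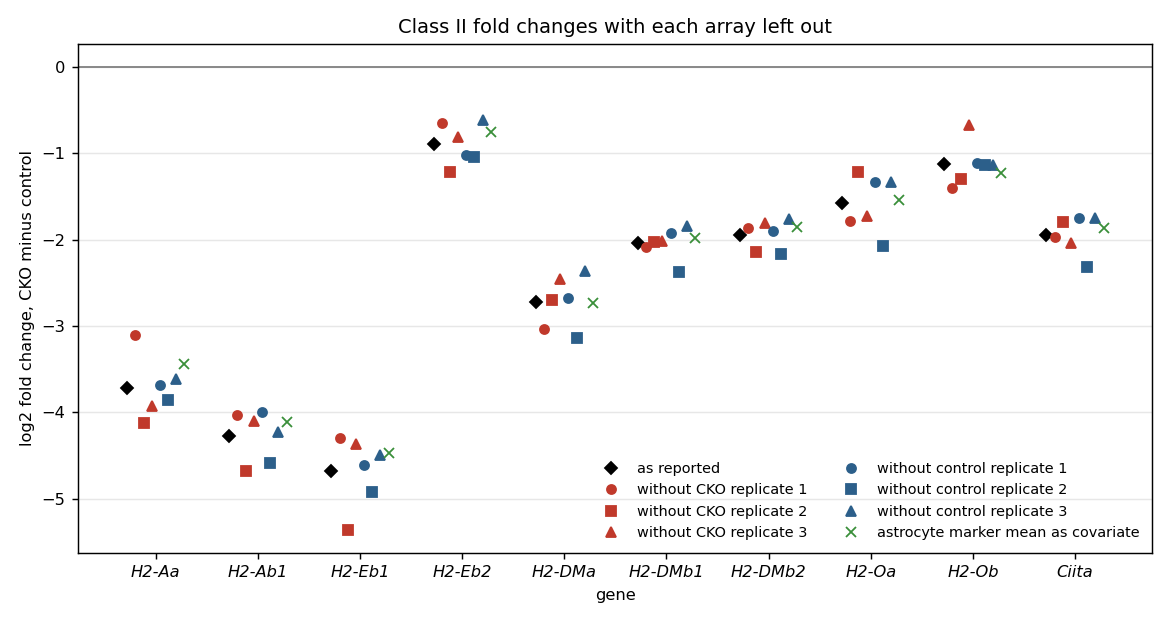
Log2 fold change (vertical axis, CKO minus control) of the 10 class II genes as reported, with each array left out in turn, and with the astrocyte marker mean as a covariate. All points lie below 0, which leaving out an array could not change for genes whose groups do not overlap.

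The number of class II genes that passed depended on which arrays entered the fit. No difference changed sign, which leaving arrays out could not bring about for genes whose groups do not overlap. Without CKO replicate 1, the array with the highest astrocyte markers, 8 of 10 passed an adjusted p of 0.05, all but H2-Eb2 and H2-Oa, against 9.95% of all probe sets. The CKO group then held only the 2 arrays with a narrow range of values, so group and range cannot be told apart in that fit. Without control replicate 2 the count was 5 (H2-Ab1, H2-Eb1, H2-DMa, H2-DMb1 and Ciita), against 0.563% of all probe sets, and without CKO replicate 2 it was 1 (H2-Eb1), the only probe set called in that fit (0.0045%). It was 0 without control replicate 1, control replicate 3 or CKO replicate 3. Without both CKO replicate 1 and control replicate 2, a setting chosen after seeing the data, 8 of 10 passed, against 11.3% of all probe sets. Group and range cannot be told apart there either, since the CKO group held the same 2 arrays. With the astrocyte marker mean as a covariate, also chosen after seeing the data, 7 of 10 passed, against 3.43%, and the H2-Ab1 difference was -4.11. With each array weighted by its residual spread, 9 of 10 passed, all but H2-Eb2, against 7.63%. CKO replicate 1 had the lowest weight (0.258), so that fit also leaned on the 2 CKO arrays with a narrow range.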

How the data were processed

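Microglial RNA was labelled for Affymetrix whole-transcript arrays, per the labels' protocols. The deposited table gives log2 expression after RMA (robust multi-array average), as named by the authors per the submitters' processing notes; the version, settings and annotation release used by the authors are not stated there. Values from 2.93 to 19.93 fit a log2 scale. The interquartile range differed between arrays, from 3.08 on CKO replicate 2 to 4.0 on CKO replicate 1. The deposited arrays therefore do not share 1 distribution of values. Depth does not apply, and the 3 arrays per group limit the precision.

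Of 22206 probe sets, 19572 named 1 gene in the platform annotation and 2634 had no name; the named ones all matched the RefSeq gene table (GRCm38.p6) by Entrez number. For a gene with several probe sets, the one with the highest mean was used. Limma 3.58.1 in R 4.3.3 (lmFit, eBayes, no covariate) was fitted to all probe sets, CKO minus control, two-sided, with Benjamini-Hochberg adjustment over all of them. The fit was tested on simulated data. Deviations of same-numbered arrays from their group means correlated at -0.005, -0.23 and 0.254. These lay within the range of differently numbered arrays, -0.334 to 0.304.

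The genes, the pathway and marker lists and the tests were chosen with earlier results of these data known. All 10 class II genes are named. From the pathway list the 6 with the smallest p, Rfx5 and Ifng are named, from each marker list up to 3 of the genes with the highest means (Ifi30, Cd22 and Lyve1 are exceptions), and of the chromosomal neighbours the 5 measured. Alternatives covered normalization, filters, variance models, weights, the replicate block, omitted arrays, averaged probe sets and the threshold.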

Additional observations from a re-analysis of the deposited data

How the results depend on the processing

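All 10 class II log2 fold changes kept their sign under each of the 18 alternatives that could be fitted to them. The filter on the dimmest 50% of probe sets left 17 for H2-Eb2 and Ciita. For most alternatives the sign was fixed in advance. The filters, the trended robust fit, the replicate block and averaged probe sets leave each of these differences as it is. Omitted or weighted arrays cannot reverse a difference between groups without overlap, which all but H2-Eb2 had. The count of class II genes at an adjusted p of 0.05, 0 as reported, was 9 with array weights, which gave CKO replicate 1 the lowest weight (0.258), and 7 with the astrocyte covariate. It was 8 without CKO replicate 1 and control replicate 2, 1 (H2-Ab1) with median centring, 1 (H2-Ab1) with a trended robust fit, and 3 (H2-Aa, H2-Ab1 and H2-Eb1) at an adjusted p of 0.1, which 0.198% of all probe sets passed. With 1 array left out it ranged from 0 to 8. The pathway count, also 0, was 6 with array weights, 4 with the astrocyte covariate, 8 without that pair of arrays, and 0 to 4 with 1 array left out, each lower in CKO. Over all probe sets the count of 2 became 1694, 762 and 2516 under those settings, 44 at an adjusted p of 0.1, 4 with the trended robust fit, and 1 with quantile normalization or without the dimmest 20% or 50%, and ranged from 0 to 2209 with 1 array left out. The median class II log2 fold change of -1.99 was -2.39 without that pair of arrays and -2.35 to -1.80 with 1 array left out. Median centring moved the median of all probe sets by over 0.1, to -0.06 against 0.06 as reported. With the replicate number as a block, 0 probe sets and 0 class II genes passed. The class II median was -1.99, which a balanced block leaves as it is. Whether the replicate numbers pair the arrays is not known. The cause of these shifts was not tested. Signal over background was not used here, so H2-Eb2, and Ciita on the CKO arrays, have an uncertain level.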
